A study of Caenorhabditis elegans with 60 samples.

Results

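Small RNAs that co-purify with both isoforms of the Argonaute protein CSR-1 were measured in *C. elegans* at the L4 stage, the last larval stage, in which the hermaphrodite germline makes sperm. Of the 60 libraries of the series, 4 describe these small RNAs. They are 2 libraries from an anti-FLAG immunoprecipitation (CSR-1A+B L4 IP) and 2 from the input lysates it was made from (CSR-1A+B L4 input), chosen by their labels. The animals were strain USC1111, genotype csr-1b(cmp166[2xFLAG::csr-1]) IV, grown at 20 °C and collected 48 h post hatching. A further 3 pairs of IP and input were set against them with a test. The CSR-1B L4 pair (2 and 2 libraries) came from strain USC1112, with csr-1b(cmp167[2xFLAG::csr-1]) IV, the same tag, on a chromosome that also carries the mutation csr-1a(cmp135). The CSR-1A+B adult pair (2 and 2) came from USC1111 at 68 h. The wild-type FLAG control at L4 (3 and 3) came from N2 animals, which carry no tag, and measures what binds the matrix without one. IPs of CSR-1A, from the strain csr-1a(cmp165[2xHA::csr-1a]) IV with an anti-HA matrix, and of WAGO-1, from animals with mut-16(cmp41[mut-16::mCherry]) I in addition to wago-1(cmp92[GFP::3xFLAG::wago-1]) I, are given side by side at L4. All tags sit at the endogenous loci, and lysates were of whole hermaphrodites, so soma and germline were not separated.

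Argonautes are the proteins that carry small RNAs to complementary transcripts. CSR-1 carries 22G-RNAs, which RNA-dependent RNA polymerases copy directly from mRNA, and is known in the germline for binding small RNAs against expressed genes, while the related WAGO proteins carry 22G-RNAs against silenced genes, pseudogenes and transposons. The csr-1 gene makes a long isoform, CSR-1A, known from the male germline and the L4 hermaphrodite germline, and a short isoform, CSR-1B, found more broadly in the germline. The counts analysed here cover every sequenced small RNA that fell on an exon, with no split by length, first base or strand, so 22G-RNAs are not separated from other species.

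Where the tag sits decides what the matrix can hold. The gene lies on chromosome IV from 7957580 to 7962129 (WBcel235, plus strand). The first base of the csr-1a start codon is at 7957580, and that of the csr-1b start codon is at 7958613, in exon 3 of csr-1a, after 489 coding bases of the long isoform. The stretch of the study's repair oligo that matches the genome before the tag ends at 7958615, the last base of the csr-1b start codon, so the 2xFLAG sequence is at the start of CSR-1B and inside CSR-1A, and both proteins carry it. The sequences below show that point and the guides used there, in lower case with the part named in capitals.
csr-1b start codon, IV:7958598-7958627, plus strand, start codon in capitals: ggacttaactctgacATGaatcagaagcaa
Guide for the 2xFLAG tag, IV:7958634-7958652, minus strand, PAM in capitals: agatgttcagggcaagtctTGG
Guide for the csr-1a mutations, IV:7957584-7957602, plus strand, PAM in capitals: agtcggataatgtcggtcgTGG
The guide for the tag has 1 match in the genome and lies 18 bases past the start codon it was used to tag. The guide for the csr-1a mutations lies at the first codons of the long isoform, upstream of the csr-1b start, and was not used to make the CSR-1A+B strain.

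Counts on genes were 5477140 and 4814607 in the IP and 7196510 and 5343284 in the input. The 2 IP libraries had a Pearson r of 0.977 across genes on a log2 scale and the 2 inputs 0.988, and both pairs differed by more than sampling noise, with a chi-square per gene of 15.2 and 2.94, so they were kept as separate libraries. RPM below means counts scaled to 1e+06 reads mapped to the genome. Log2 enrichment means the fitted difference of IP from input after TMM scaling, which sets the bulk of genes near 0. The median of all 13094 genes tested was -0.07. The fitted value lay a median of 0.99 below the log2 ratio of the RPM values, so a gene with 2 times more RPM in the IP has a log2 enrichment near 0, and a gene at equal RPM is near the depletion threshold. Ranks among genes do not depend on this shift, but each sign is relative to the other genes.

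Small RNAs on protein-coding genes took 75.02 and 77.32% of the counts in the IP, against 51.1 and 53.5% in the input. Most structural RNA classes went the other way. Counts on tRNA genes made up 0.397 and 0.395% in the IP and 4.94 and 4.16% in the input, those on rRNA genes 6.63 and 6.90% in the IP and 14.9 and 13.3% in the input, and those on snoRNA genes 0.632 and 0.566% in the IP and 2.54 and 2.21% in the input. Pseudogenes, which include many known WAGO targets, held 8.67 and 7.69% in the IP against 12.62 and 12.99% in the input. The libraries of the IP and the input did not overlap for any of these classes. For snRNA they did, with 0.389 and 0.276% in the IP and 0.296 and 0.292% in the input. With 2 libraries against 2, the exact permutation test (two-sided) gave p = 0.333 for each class but snRNA, which is the smallest p this design allows, and p = 1.0 for snRNA.

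A gene was called a CSR-1A+B target when its small RNAs were at least 2-fold enriched in the IP (adjusted p no larger than 0.05), averaged 10 RPM or more there, and were not called in the wild-type FLAG control. By this rule, which follows the study's thresholds, 3975 of 13094 genes (30.4%) were targets. With the same thresholds in the other direction, 1959 genes (15.0%) were depleted. All p-values of single genes are from the quasi-likelihood test of edgeR, adjusted after Benjamini-Hochberg, and 10241 genes had an adjusted p of at most 0.05. The control IP called 472 genes (3.85% of those tested there), and 23 of them would otherwise have been targets, among them lys-10, hsp-1, fib-1, icd-1 and the Argonaute gene ergo-1, which were chosen after their values were seen. The labels do not say whether the 2 replicates are separate cultures, so p-values measure only the spread between these libraries, which may be technical.

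**Figure D1:**
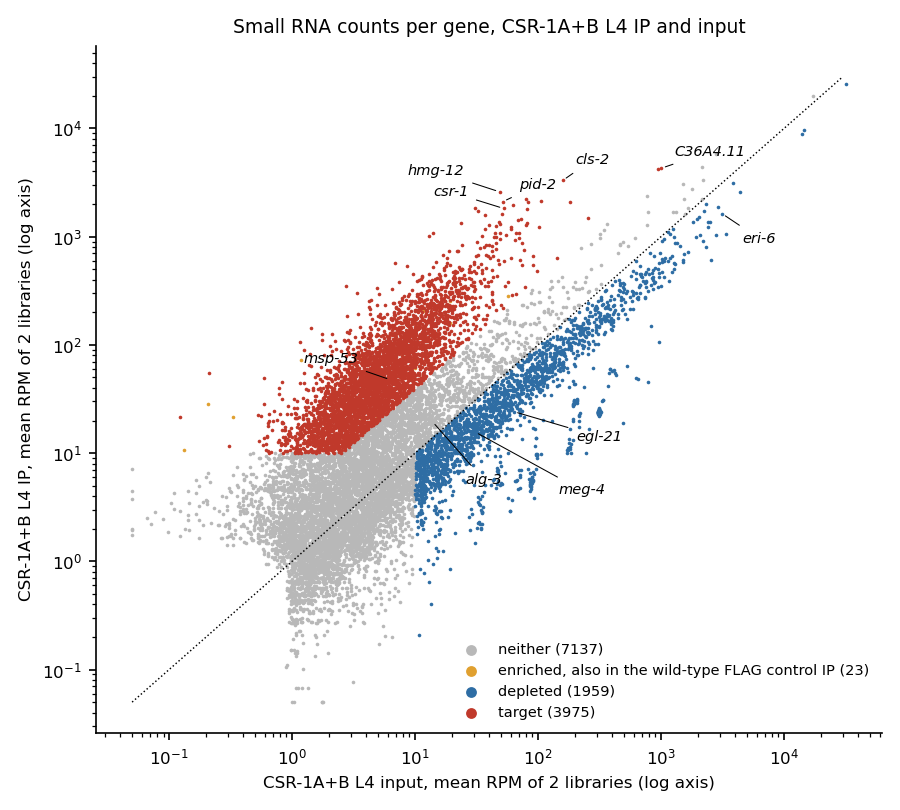
Mean RPM of each tested gene in the CSR-1A+B L4 IP (vertical) and in the CSR-1A+B L4 input (horizontal), both on log axes, 2 libraries each, coloured by call; the dotted line marks equal RPM. Targets (3975) lie above about 4 times the line and depleted genes (1959) at or below it, because TMM scaling puts the centre of all genes above the line.

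The targets spread over a wide range of enrichment and abundance. Their median log2 enrichment was 2.33, with 10th and 90th percentiles of 1.32 and 3.38. Between 2- and 4-fold there were 1349 targets, between 4- and 8-fold 1822, between 8- and 16-fold 693, and 111 were enriched 16-fold or more. Their median level in the IP was 47.3 RPM, and the highest level was 4287 RPM. A small part of the targets carried much of the material, since 419 held 50% of the summed target RPM and 1508 held 80%. Targets as a whole took 51.8 and 55.0% of all counts in the IP, against 6.69 and 7.04% in the input. Just inside the enrichment threshold, 22 targets exceeded it by a log2 of less than 0.02, and 14 genes that met the other criteria missed it by at most 0.02. At the abundance threshold, 64 targets had 10 to 11 RPM, and 85 enriched genes with 9 to 10 RPM were left out.

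The most abundant targets were C36A4.11 and K06B9.6, a pair of near copies that share 333 of their 22-base words (71.0% of C36A4.11 and 78.0% of K06B9.6), so their reads cannot be assigned to 1 of them with certainty. C36A4.11 had 4125 and 4450 RPM in the IP against 984 and 1029 RPM in the input, with a log2 enrichment of 1.10 ± 0.12 (SE; edgeR adjusted p = 9.8e-05). The next were cls-2, a CLASP protein that stabilizes spindle microtubules (3395 and 3212 RPM in the IP, 158 and 159 RPM in the input), hmg-12, a DNA-binding protein of the HMG type (2026 and 3159 RPM in the IP, 50.6 and 46.8 RPM in the input), and herd-1 (1804 and 2654 RPM in the IP, 76.0 and 84.6 RPM in the input). Unlike the near copies, these 3 had log2 enrichments of 3.39 to 4.74.

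The largest enrichments fell on genes with few input counts. Y41D4B.36 had 89 and 22 RPM in the IP against 0.0657 and 0.356 RPM in the input (log2 7.14 ± 1.00). Y53C12A.6 had 107 and 188 counts in the IP and 1 and 2 counts in the input, an RPM ratio of 185.5 with a 95% exact (Clopper-Pearson) interval of 62.8 to 904, which covers counting error only. Better measured were algn-3, a glycosyltransferase of the N-glycan pathway (476 and 229 RPM in the IP, 2.36 and 3.11 RPM in the input, log2 6.04), lsm-3, a subunit of the Lsm ring that binds U6 snRNA and decaying mRNA (99.2 and 189 RPM in the IP, 1.31 and 1.51 RPM in the input, log2 5.68), and glo-2 of the gut granule pathway (48.7 and 50.6 RPM in the IP, 0.197 and 0.978 RPM in the input, log2 5.52). In each of these genes both IP libraries lay above both inputs, which was a condition for naming them and held for all 3975 targets.

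Genes of the small RNA pathways were themselves among the targets. Of the 4 tested genes that make or carry CSR-1 22G-RNAs, 3 were targets. The csr-1 gene had 1534 and 2106 RPM in the IP against 51.6 and 53.5 RPM in the input (log2 4.12 ± 0.19, edgeR adjusted p = 7.2e-06). The helicase gene drh-3 had 272 and 262 RPM in the IP and 13.6 and 15.7 RPM in the input (log2 3.2), and the RNA-dependent RNA polymerase gene ego-1 had 585 and 532 RPM in the IP and 32.8 and 36.1 RPM in the input (log2 3.03, chosen after its values were seen). The Tudor-domain cofactor gene ekl-1 was below the fold threshold, at a log2 of 0.88. All 4 had IP libraries above both inputs. Of all 13094 tested genes, 6392 had this and a log2 above 0.

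Of 19 tested genes for other Argonautes, 12 were targets and none was depleted (median log2 2.15). Small RNAs on ppw-2, a germline WAGO, reached 1396 and 1497 RPM in the IP, against 71.3 and 74.6 RPM in the input (log2 3.32). Those on rde-1, the Argonaute that starts RNAi from double-stranded RNA, were at 163 and 82.5 RPM in the IP and 5.19 and 3.65 RPM in the input (log2 3.79). The wago-1 gene had 176 and 172 RPM in the IP and 13.3 and 13 RPM in the input (log2 2.73). The Argonautes of sperm 26G-RNAs were not among the targets. The alg-3 gene had 19 and 20.3 RPM in the IP and 12.9 and 14.6 RPM in the input, a higher RPM in the IP that the scaling places at a log2 of -0.47 ± 0.17 (edgeR adjusted p = 0.035), and alg-4 had 26.9 and 36.6 RPM in the IP and 11.6 and 13.7 RPM in the input (log2 0.34 ± 0.20, adjusted p = 0.16). Neither reached the 2-fold threshold in either direction.

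Genes of the piRNA pathway were targets in 15 of 16 tested cases (median log2 2.55). Small RNAs on pid-2 reached 2074 and 2133 RPM in the IP against 49.3 and 53.8 RPM in the input (log2 4.36), and those on erh-2, a subunit of the piRNA-processing complex at perinuclear granules, 87.5 and 204 RPM in the IP against 3.12 and 3.96 RPM in the input (log2 4.37). The exception was parn-1, the exonuclease that trims piRNA 3′ ends, which was depleted, with 237 and 200 RPM in the IP against 363 and 373 RPM in the input (log2 -1.74, edgeR adjusted p = 3.4e-05). In the mutator complex, which amplifies siRNAs, 8 of 11 tested genes were targets (median log2 2.46), led by the helicase gene mut-14 (655 and 523 RPM in the IP, 30.2 and 30.0 RPM in the input, log2 3.30). About 34.1% of the 22-base words of mut-14 also occur in other genes.

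The 26G-RNA pathway, in which RRF-3 and Dicer make the triggers for ERGO-1 and ALG-3/4, was mixed, with 6 targets and 1 depleted gene of 13 tested (median log2 1.68). Targets included the polymerase gene rrf-3 (159 and 168 RPM in the IP, 9.79 and 8.98 RPM in the input, log2 3.13) and dcr-1, the Dicer gene (186 and 186 RPM in the IP, 10.5 and 11.7 RPM in the input, log2 3.08). By contrast eri-6, a helicase gene, held 1910 and 1357 RPM in the IP and 3032 and 3215 RPM in the input and was depleted (log2 -1.92, edgeR adjusted p = 6.1e-05). Part of the exons of eri-6 (24.2%) overlaps another annotated gene, so its counts are uncertain. Components of P granules and Z granules, the perinuclear condensates where these pathways meet, were targets in 18 of 22 tested cases (median log2 2.93). The highest was mip-1, a LOTUS-domain protein of P granules, with 1549 and 2110 RPM in the IP against 32.2 and 29.7 RPM in the input (log2 4.89 ± 0.20), and pgl-1 had 637 and 623 RPM in the IP against 39.3 and 42.2 RPM in the input (log2 2.96). The X-linked meg-4, whose protein builds P granules in the embryo, was depleted, at 14.6 and 16.9 RPM in the IP and 32 and 29 RPM in the input (log2 -1.95).

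**Figure D2:**
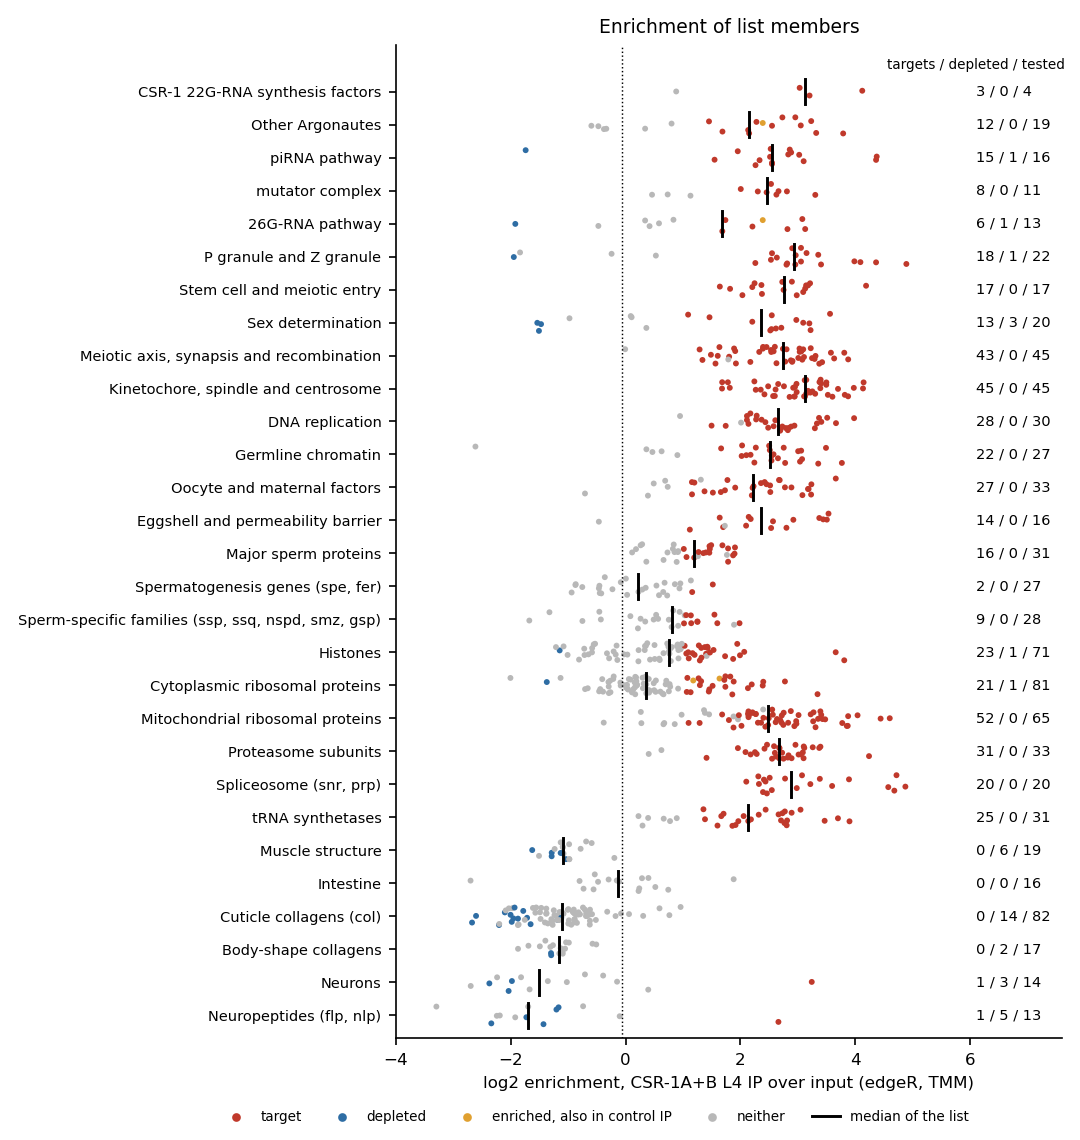
Log2 enrichment (CSR-1A+B L4 IP over input) of each tested member of 29 gene lists, with the median of each list as a black bar, the median of all genes as a dotted line, and the numbers of targets, depleted and tested genes at the right. Lists of germline and housekeeping processes have medians from 1.68 to 3.12 apart from histones and cytoplasmic ribosomal proteins, sperm lists lie from 0.22 to 1.19, and lists of somatic tissues from -1.70 to -0.13.

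Regulators of the germline stem cell pool and of meiotic entry were targets in 17 of 17 tested cases (median log2 2.75). Small RNAs on lag-1, the transcription factor of Notch signalling, were at 219 and 267 RPM in the IP and 5.85 and 7.65 RPM in the input (log2 4.19), and those on fbf-1, a PUF protein that represses differentiation, at 303 and 287 RPM in the IP and 15.8 and 16.2 RPM in the input (log2 3.21). The fbf-1 gene shares 41.5% of its 22-base words with other genes. Of 20 tested genes of the sex determination pathway, 13 were targets, among them fem-2, which promotes male fate (55.7 and 52.3 RPM in the IP, 2.50 and 2.05 RPM in the input, log2 3.56), and fog-2, which allows sperm formation in hermaphrodites (36.3 and 60.7 RPM in the IP, 2.23 and 3.02 RPM in the input, log2 3.22). The depleted genes were 3 (15.0% of those tested, the same share as over all genes). They were the calpain gene tra-3 (15.5 and 11.3 RPM in the IP, 20.6 and 18.8 RPM in the input, log2 -1.54) and the X-linked dosage compensation genes xol-1 and sdc-1 (log2 -1.47 and -1.51), named after their values were seen.

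Meiosis and cell division genes were almost all targets. Of the genes of the meiotic axis, synapsis and recombination, 43 of 45 tested were targets (median log2 2.74). The HORMA-domain axis gene htp-1 had 1282 and 1232 RPM in the IP against 44.4 and 46 RPM in the input (log2 3.81 ± 0.14), and chk-2, the kinase that licenses homolog pairing, had 998 and 1031 RPM in the IP against 36.7 and 32.7 RPM in the input (log2 3.88). All 45 tested genes of the kinetochore, spindle and centrosome were targets (median log2 3.12). The centromeric histone gene hcp-3 had 399 and 503 RPM in the IP against 11.5 and 14.2 RPM in the input (log2 4.14), and the kinesin gene klp-16 had 588 and 671 RPM in the IP against 17.5 and 18.6 RPM in the input (log2 4.13). Summed over that list, small RNAs came to 16326 and 17781 RPM in the IP and 831 and 890.0 RPM in the input. Of DNA replication genes, 28 of 30 were targets (median log2 2.65), led by the origin recognition gene orc-4 (106 and 129 RPM in the IP, 4.27 and 3.11 RPM in the input, log2 3.98). The germline chromatin list had 22 targets of 27 (median log2 2.51), with lin-61 of the synMuv B group (log2 3.77) and morc-1, an ATPase needed for inherited silencing (1762 and 1844 RPM in the IP, 76.6 and 85.1 RPM in the input, log2 3.49).

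Although the animals were making sperm, genes used in the oocyte and embryo were targets too. Of 33 tested oocyte and maternal factors, 27 were targets (median log2 2.21). The RNA-binding protein gene daz-1 had 373 and 251 RPM in the IP against 13 and 11.8 RPM in the input (log2 3.66), and spn-4, a regulator of early embryonic fates, had 126 and 86 RPM in the IP against 4.40 and 7.12 RPM in the input (log2 3.24). Eggshell and permeability barrier genes were targets in 14 of 16 tested cases (median log2 2.36). Small RNAs on egg-6 were at 644 and 915 RPM in the IP and 33.8 and 33.7 RPM in the input (log2 3.53). The pseudophosphatase gene egg-4 had a log2 of 3.50, but 81.4% of its 22-base words occur in another gene, so the value is shared with near copies.

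Of 31 tested major sperm protein genes, which encode the cytoskeletal protein that drives sperm crawling, 16 were targets (median log2 1.19), or 10 to 24 over the scalings. All 31 share over 50% of their 22-base words with other genes, so the family is better read as a whole, and its summed level was 610.0 and 868 RPM in the IP against 155 and 174 RPM in the input. The highest was msp-53, with 38.8 and 56.1 RPM in the IP against 6.37 and 6.32 RPM in the input (log2 1.90 ± 0.22, edgeR adjusted p = 0.00015). Both IP libraries lay above both inputs for all 31, and 6392 of all 13094 tested genes had this and a log2 above 0. In the control IP the same list had a median of 0.44, and 7 of the 31 were more enriched with CSR-1A+B than there. Of the sperm-specific families ssp, ssq, nspd, smz and gsp, 9 of 28 tested were targets, near the share of all genes and between 3 and 14 over the scalings (median log2 0.81), led by ssq-2 (53.3 and 72.0 RPM in the IP, 7.95 and 7.92 RPM in the input, log2 1.98). Among genes named for spermatogenesis defects (spe and fer), 2 of 27 were targets, below the 30.4% of all genes, or 1 to 7 over the scalings and 1 to 5 with 1 library left out, with a list median of 0.22 that ran from -0.39 to 0.58 over the scalings tried. One of these was spe-42, a sperm membrane protein needed for fertilization (11.9 and 10.2 RPM in the IP, 1.71 and 2.22 RPM in the input, log2 1.52). None of the 3 sperm lists held a depleted gene. Small RNAs on R05D7.2, Y41C4A.7 and F44D12.6, which the study followed by RT-qPCR, were targets with log2 values of 1.55, 1.51 and 2.04.

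Among housekeeping groups the 2 kinds of ribosome differed. Mitochondrial ribosomal protein genes were targets in 52 of 65 tested cases (median log2 2.48), led by mrpl-19 (49.9 and 80 RPM in the IP, 1.12 and 1.6 RPM in the input, log2 4.60) and mrps-12 (45.6 and 63.3 RPM in the IP, 1.25 and 1.25 RPM in the input, log2 4.44). Cytoplasmic ribosomal protein genes were targets in 21 of 81 cases (25.9%, near the 30.4% of all genes), or 15 to 27 over the scalings. Their median of 0.36 ran from -0.06 to 0.72 over the scalings. Within that list rpl-24.2 had 79.5 and 69.5 RPM in the IP against 3.88 and 3.47 RPM in the input (log2 3.34), while the X-linked rpl-11.2 was depleted (15.9 and 14 RPM in the IP, 20.6 and 18.5 RPM in the input, log2 -1.37). In the control IP the same list had a median of 0.83. All 20 tested genes of the spliceosome list were targets (median log2 2.88), among them the Sm protein genes snr-6 (247 and 344 RPM in the IP, 5.12 and 4.98 RPM in the input, log2 4.87) and snr-1 (200 and 244 RPM in the IP, 4.27 and 4.18 RPM in the input, log2 4.72). Proteasome subunits were targets in 31 of 33 cases (median log2 2.68) and tRNA synthetases in 25 of 31 (median log2 2.14). Histone genes had 23 targets of 71, near the share of all genes, or 11 to 34 over the scalings and 14 to 33 with 1 library left out (median log2 0.76), and the highest were the H3.3 variant genes his-74 (175 and 200 RPM in the IP, 6.83 and 6.58 RPM in the input, log2 3.81) and his-72 (99.97 and 150 RPM in the IP, 5.39 and 4.45 RPM in the input, log2 3.66). Most histone genes (53 of all 72 in the list) share over 50% of their 22-base words with other genes, unlike these variants (5.58 and 12.4%).

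Lists of somatic tissues held 2 targets in all. None of 19 tested muscle genes was a target and 6 were depleted (31.6%, against 15.0% of all genes, with a median log2 of -1.09). The giant sarcomere gene unc-22 was at 30.6 and 36.9 RPM in the IP against 52.4 and 52.4 RPM in the input (log2 -1.63). The muscle list summed to 306 and 472 RPM in the IP and 433 and 403 RPM in the input, which overlap, and between 1 and 9 of its genes were depleted over the scalings and left-out libraries. None of 82 tested cuticle collagen genes was a target and 14 were depleted (17.1%, near the 15.0% of all genes; median log2 -1.11), and the list's sums were 989 and 1128 RPM in the IP and 1417 and 1461 RPM in the input. Collagens that shape the body gave 2 depleted genes of 17 (median log2 -1.15), or 0 to 4 over the scalings and left-out libraries. That is 11.8%, below the 15.0% of all genes. Neuronal genes gave 1 target and 3 depleted genes of 14 (21.4% depleted, against 15.0% of all genes, with a median log2 of -1.51). The peptide-processing gene egl-21 had 24.6 and 23.8 RPM in the IP against 61.6 and 64.8 RPM in the input (log2 -2.37), while snb-1, the synaptobrevin gene, was the target (80.2 and 56.9 RPM in the IP, 3.42 and 3.91 RPM in the input, log2 3.24). Neuropeptide genes gave 1 target, nlp-36, and 5 depleted genes of 13 tested (38.5%, against 15.0% of all genes, with a median log2 of -1.70). Small RNAs on nlp-12 were at 26.4 and 26.1 RPM in the IP and 62.8 and 71.1 RPM in the input. Only 13 of 102 neuropeptide genes had enough counts to be tested. The 16 tested intestinal genes held neither a target nor a depleted gene (median log2 -0.13), and their median changed sign with the scaling (-0.55 to 0.22). In the wild-type control IP, muscle and collagen lists had medians of 1.36 and 1.85, and the part of matrix binding in the levels seen here was not tested.

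The depleted genes with the most input RPM were structural. The 26S rRNA gene rrn-3.1 had 25970 and 25540 RPM in the IP against 33943 and 30183 RPM in the input (log2 -1.31), and both copies of the 18S gene rrn-1.1 were depleted likewise (log2 -1.59 and -1.65). The noncoding gene linc-29 had 2051 and 3154 RPM in the IP against 4184 and 4502 RPM in the input (log2 -1.73). By class, 187 of 510 tested tRNA genes were depleted and 1 was a target, and 89 of 158 snoRNA genes were depleted and 6 were targets. Pseudogenes had 191 depleted and 40 target genes of 729. Small nuclear RNA genes differed from these classes in having more targets than depleted genes, at 28 and 9. Their shares of targets and of depleted genes were still both below those of all genes (30.4 and 15.0%). The median mRNA level in wild-type L4 animals was 17.4 TPM for protein-coding targets, 2.98 TPM for depleted protein-coding genes and 10.5 TPM for all 10745 tested. The mRNA libraries are of whole animals, in which fewer cells of a type and less RNA per cell cannot be told apart.

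Targets were spread over the autosomes and nearly missing from the X chromosome. Of 1026 tested protein-coding genes on X, 17 were targets (1.66%) and 168 were depleted (16.4%), with a median log2 of -1.10. On the autosomes 3839 of 9707 were targets (39.5%), from 30.9% on chromosome V to 47.8% on chromosome III, against 35.9% over all protein-coding genes. The number of X-linked targets ran from 7 to 23 over the scalings tried. Those with the largest enrichment, chosen after their values were seen, were F23A7.8 (log2 4.74), chkr-1 (log2 3.43) and Y73B3A.1 (log2 2.81).

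**Figure D3:**
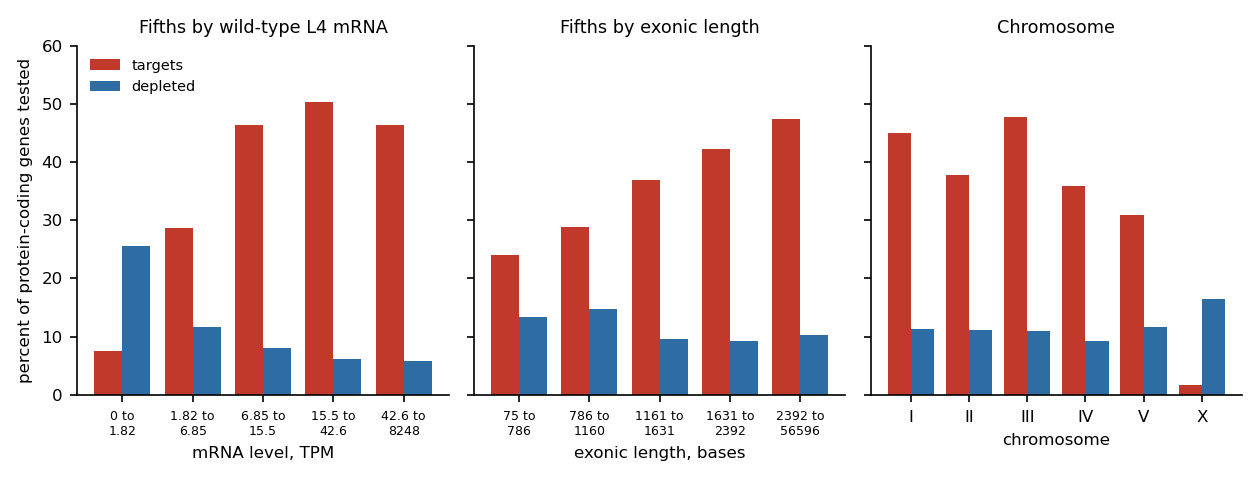
Percent of tested protein-coding genes that were CSR-1A+B targets (red) or depleted (blue), in quintiles of wild-type L4 mRNA level (TPM), in quintiles of exonic length (bases) and by chromosome. The share of targets is 7.54% in the lowest quintile of mRNA and 50.3% in the fourth, and 1.66% on the X chromosome.

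The share of targets also went with the mRNA level in wild-type L4 animals, measured in 3 other libraries. It was 7.54% in the lowest quintile of genes by mRNA, 28.7% in the second, 46.4% in the third, 50.3% in the fourth and 46.4% in the highest. The share of depleted genes went down over the same quintiles, at 25.5, 11.6, 8.10, 6.24 and 5.86%. The most abundant mRNAs were not the most often targeted, as 22 of the 100 highest were targets and 7 were depleted. Longer genes were targets more often, with 24% in the lowest quintile by exonic length and 47.3% in the highest, but a longer gene also collects more counts at equal density, and its chance to pass 10 RPM was not separated from this. The median number of exon blocks was 6 in targets, depleted genes and all tested genes alike.

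Most targets were more enriched in the CSR-1A+B IP than in the control IP. The difference of the 2 enrichments was higher in CSR-1A+B for 4169 of 13925 genes (29.9%) and lower for 5324 (38.2%), and 3727 of the 3975 targets (93.8%) were among the higher ones, as the choice of targets favours. All 45 genes of the kinetochore list and all 20 of the spliceosome list were higher. Of major sperm protein genes 7 of 31 were higher and none lower, with 2 to 20 higher over the scalings and 0 to 10 with 1 library left out. Of spe and fer genes 3 of 29 were higher and 6 lower, and of the sperm-specific families 3 of 29 were higher and 5 lower. For msp-53 the difference was a log2 of 1.024 ± 0.29 (edgeR adjusted p = 0.005), with 18.0, 23 and 28.7 RPM in the control IPs and 13.8, 13.9 and 13.4 RPM in the control inputs. The largest differences upward were in Y41D4B.36, Y53C12A.6, aipr-1, sls-2.6 and algn-3, and the largest downward in 4 tRNA genes and the noncoding gene ZK783.8, all of whose 22-base words also occur in other genes. All 20 tested muscle genes and 103 of 124 collagen genes were lower. The split of the calls moved with the scaling, since 43.9% of them were higher with TMM and 60.2% with library size alone.

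That comparison spans a difference in counting. The file headers name featureCounts 1.5.1 for CSR-1A+B and 1.6.5 for the control, and the input levels differ as well, with csr-1 at 51.6 and 53.5 RPM in the CSR-1A+B inputs against 261, 218 and 219 RPM in the control inputs. Version, batch and strain cannot be told apart there. Each enrichment is a ratio within 1 version.

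Most targets were also called in animals that carry the csr-1a mutation. The CSR-1B IP called 3599 genes by the same rule (27.2% before removing those of the control), of which 3398 were also CSR-1A+B targets, 85.5% of the CSR-1A+B targets and 94.4% of the CSR-1B ones. When the enrichments were tested against each other, 1457 of 13835 genes (10.5%) were higher in CSR-1A+B and 94 (0.679%) were lower. Few of these were strong CSR-1 genes, as only 72 of the 1457 were CSR-1A+B targets and 543 were depleted there. The lists of germline processes had no call in either direction for meiosis, kinetochore, DNA replication, stem cell and oocyte genes. Without CSR-1B IP replicate 1, the shallowest library, 16 of 45 meiotic, 14 of 45 kinetochore, 12 of 30 replication, 12 of 17 stem cell and 8 of 33 oocyte genes were lower in CSR-1A+B, and with other libraries left out up to 11 kinetochore genes were higher. The csr-1 gene itself had 1534 and 2106 RPM in the CSR-1A+B IP and 2263 and 3234 RPM in the CSR-1B IP, with a log2 difference of -0.18 ± 0.29 (edgeR adjusted p = 0.76). Neither did msp-53 pass the test (log2 difference 0.51 ± 0.43, adjusted p = 0.52), with 38.8 and 56.1 RPM in the CSR-1A+B IP and 16.9 and 36.8 RPM in the CSR-1B IP.

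The near copies C36A4.11 and K06B9.6 stood out among the targets. K06B9.6 had 3986 and 4466 RPM in the CSR-1A+B IP and 469 and 305 RPM in the CSR-1B IP, while the inputs held 923 and 955 RPM in CSR-1A+B and 950 and 988 RPM in CSR-1B, so it was enriched over input in CSR-1A+B (log2 1.18) and below input in CSR-1B (log2 -3.23; log2 difference 3.84 ± 0.24, edgeR adjusted p = 1.2e-06). The CSR-1B value is on a scale where the median of all genes was -1.25. The log2 difference comes from a joint fit with its own scaling, so it is not the gap between the log2 values of the separate fits. In the CSR-1A IP the log2 enrichment of K06B9.6 was 2.22 and in the WAGO-1 IP -2.88. Of histone genes, 22 of 72 tested were higher in CSR-1A+B than in CSR-1B and none was lower, and between 0 and 27 were higher with 1 library left out. Of intestinal genes 7 of 16 were higher, or 3 to 7 with 1 library left out, and of cytoplasmic ribosomal protein genes 10 of 81 were lower, or 61 without CSR-1B IP replicate 1. The genes with the largest differences were daf-36, which makes the steroid hormone dafachronic acid, the dehydrogenase gene dhs-18, and ugt-44. The daf-36 gene had 11.9 and 8.84 RPM in the IP of CSR-1A+B and 0 and 0.215 RPM in that of CSR-1B, that is 89 and 58 counts against 0 and 2, an RPM ratio of 52.8 with a 95% exact interval of 14.4 to 440 for counting error only. In the other direction the largest were Y4C6B.2 (0.937 and 0.762 RPM in the CSR-1A+B IP, 19.5 and 24.5 RPM in the CSR-1B IP) and 4 further genes on chromosome IV.

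These counts moved with each library left out. CSR-1B IP replicate 1 held only 570862 counts, and without it 838 genes were higher and 1796 lower. Without CSR-1A+B IP replicate 1, 242 genes were higher, and without replicate 2, 312. With the replicate number as a block, 166 genes were lower in place of 94. In the fit without a block, 292 of the 1738 tested X-linked genes (16.8%) were higher.

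Most L4 targets were called in adults of the same strain too. The adult IP called 3498 genes (25% before removing those of the L4 control), and 3022 of them were L4 targets, 76.0% of the L4 list and 86.4% of the adult list. The series has no untagged control IP of adults, so binding to the matrix at that stage was not measured. Against the adult enrichment, 2020 of 15111 genes (13.4%) were higher at L4 and 2342 (15.5%) were lower, and 1466 of the 3975 L4 targets (36.9%) were among the higher ones. The sperm lists were not alike in this. All 31 major sperm protein genes were higher at L4 (median log2 difference 2.84), under every scaling tried and 29 to 31 of them with 1 library left out, and 24 of 29 tested genes of the other sperm families were higher (median 2.26, between 23 and 25 over the scalings). Of 30 spe and fer genes 3 were higher and 2 lower (median 0.51), with 1 to 13 higher over the scalings. For msp-53, 38.8 and 56.1 RPM in the L4 IP stood against 1.12 and 0.856 RPM in the adult IP, and the inputs held 6.37 and 6.32 RPM at L4 and 3.15 and 3.22 RPM in adults (log2 difference 3.69 ± 0.38, edgeR adjusted p = 0.00027). The sperm nuclear protein gene spch-1 had 92.2 and 164 RPM in the L4 IP and 4.17 and 5.65 RPM in the adult IP (log2 difference 4.27 ± 0.36), although its input levels were alike, at 21.8 and 24.5 RPM at L4 and 28.3 and 33.4 RPM in adults.

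Many germline genes were more enriched at L4 in these fits as well. The csr-1 gene had 1534 and 2106 RPM in the L4 IP and 1609 and 1580 RPM in the adult IP, but 51.6 and 53.5 RPM in the L4 input and 202 and 208 RPM in the adult input (log2 difference 1.30 ± 0.21, edgeR adjusted p = 0.0018). The IP levels overlapped, and the L4 input stood apart from other L4 inputs. Inputs of CSR-1A+B and CSR-1B at L4 had 51.6 to 56.9 RPM of csr-1, against 184 to 261 RPM for CSR-1A, WAGO-1 and the control. Other targets, chosen after their values were seen, had this too. In the CSR-1A+B inputs pid-2 had 49.3 and 53.8 RPM, against 191 to 303 RPM for CSR-1A, WAGO-1 and the control. For ppw-2 the values were 71.3 and 74.6 RPM against 240 to 347 RPM. The depleted eri-6 was not low, at 3032 and 3215 RPM against 1543 to 3122 RPM. The same inputs are the denominator of the CSR-1A+B enrichments given above. The part of low inputs in those enrichments and in the stage difference was not tested. In the same fits 14 of 23 granule genes, 20 of 45 meiotic genes and 19 of 30 DNA replication genes were higher, with 8 to 18, 15 to 37 and 13 to 29 over the scalings. The X chromosome went the other way, with 63 genes higher and 491 lower of 2053 tested. Among genes at 10 RPM or more, the largest differences downward were in WBGene00219279, with 2.27 and 2.29 RPM in the L4 IP and 41.3 and 42.5 RPM in the adult IP, WBGene00219303, the clathrin adaptor gene apa-2, H37A05.4 (36.5 and 41.2 RPM in the L4 IP, 549 and 486 RPM in the adult IP) and linc-121. The largest upward were clec-130, dct-17 and lys-10, which the wild-type control IP also enriched (log2 5.97, 6.27 and 4.82). The split of these calls moved with the scaling and with the input libraries kept. Under TMM 46.3% of them were higher at L4, under DESeq2's size factors 74.9% (3536 higher and 1185 lower), and under library size alone 90% (5189 higher and 576 lower). Without L4 input replicate 1 the counts were 3436 higher and 341 lower, without L4 input replicate 2 they were 3410 and 385, and without adult input replicate 1 or 2 they were 1137 and 1313, or 999 and 1033.

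**Figure D4:**
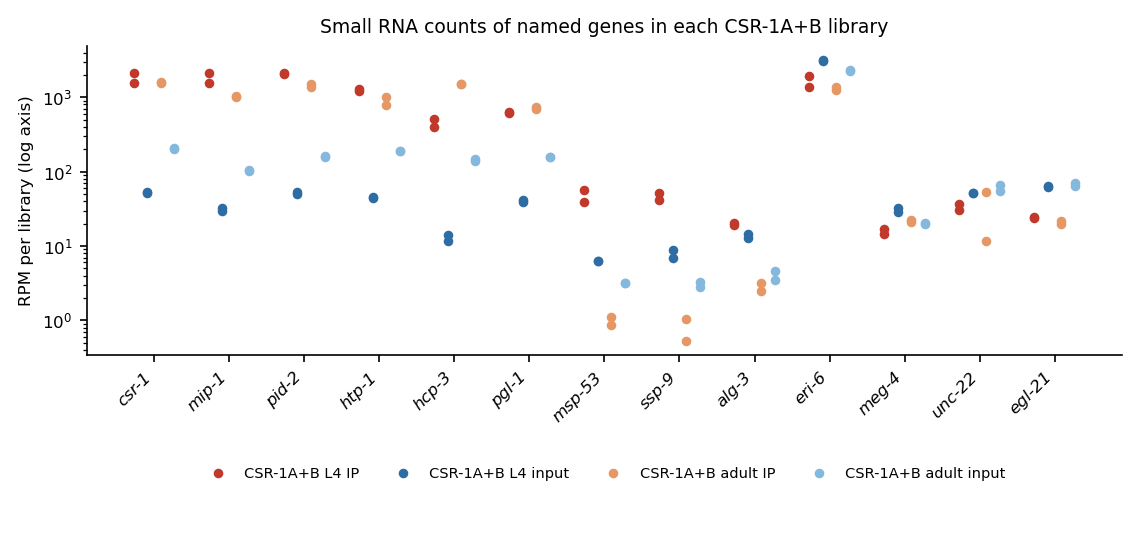
RPM (log axis) of 13 named genes in each of the 2 CSR-1A+B L4 IP libraries (red), 2 L4 inputs (blue), 2 adult IPs (orange) and 2 adult inputs (light blue). For csr-1, mip-1, pid-2 and htp-1 both IPs lie above their inputs at each stage, while msp-53 and ssp-9 lie above the input at L4 and below it in adults.

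Set beside the IPs of CSR-1A and WAGO-1, the CSR-1A+B list met the first in part and the second hardly at all. Genes called in a control IP were not removed from the CSR-1A and WAGO-1 lists, unlike from those of CSR-1A+B, CSR-1B and adults. The CSR-1A IP enriched 1824 genes (13.3%), of which 808 were CSR-1A+B targets, 20.3% of the CSR-1A+B list and 44.3% of the CSR-1A list. CSR-1A+B targets had a median log2 enrichment of 0.68 in the CSR-1A IP. Major sperm protein genes, spe and fer genes and sperm families had medians of 1.19, 0.22 and 0.81 with CSR-1A+B, against 1.4, 1.3 and 1.26 in the CSR-1A IP. The median of all genes was -0.07 with CSR-1A+B and 0.25 in the CSR-1A IP, so these medians are not on 1 scale. The CSR-1B medians were 0.31, -0.07 and 0.27, on a scale where the median of all genes was -1.25 in place of -0.07, and the test of the difference called 0 of 31, 1 of 30 and 0 of 30 of these genes higher in CSR-1A+B than in CSR-1B. The small RNAs on alg-4 had a log2 enrichment of 0.34 in the CSR-1A+B IP and 2.54 in the CSR-1A IP. No test of CSR-1A+B against CSR-1A was run, since the antibody, the replicate numbers and the counting version differ. The WAGO-1 IP enriched 2295 genes (17%), of which 128 were CSR-1A+B targets (3.22% of the targets and 5.58% of the WAGO-1 list) and 1069 (46.6% of the WAGO-1 list) were depleted from the CSR-1A+B IP. CSR-1A+B targets had a median log2 of -1.22 in the WAGO-1 IP, and genes depleted from the CSR-1A+B IP one of 1.49. The helicase gene eri-6, depleted here, had a log2 of 1.77 in the WAGO-1 IP, egl-21 one of 1.55 and nlp-12 one of 2.39.

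**Figure D5:**
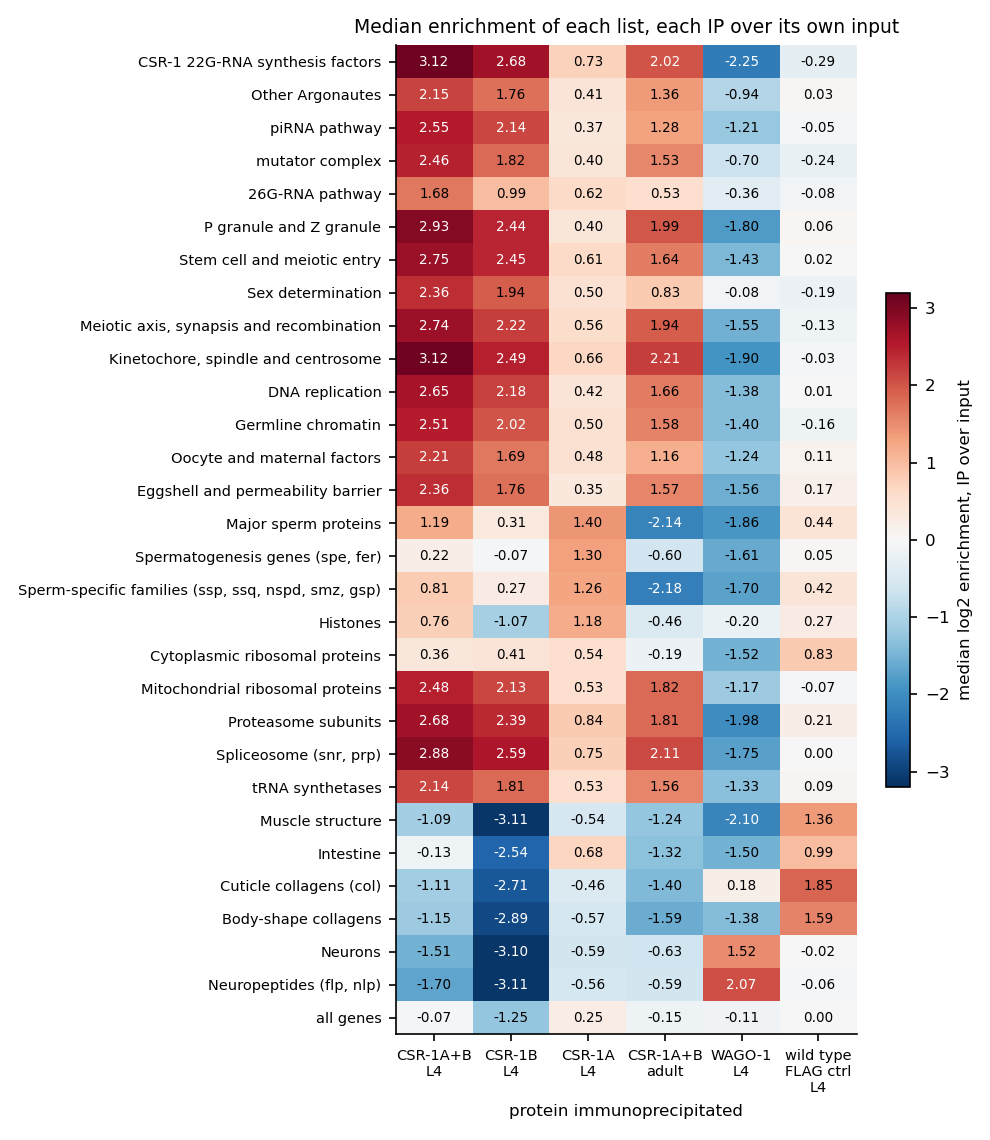
Median log2 enrichment of each gene list in 6 IPs, each over its own input, with the value printed in each cell and the median of all genes in the last row. Kinetochore genes have medians of 3.12 in CSR-1A+B, 2.49 in CSR-1B and 2.21 in adults against -1.90 in WAGO-1, and the CSR-1B column is shifted down, with a median of -1.25 over all genes.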

How the data were processed

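Small RNA libraries were made from size-selected RNA (18 to 30 nt) treated with 5′ polyphosphatase. The authors trimmed reads with the FASTX-Toolkit, aligned them to the WS258 genome with Bowtie2 and counted reads on exons with featureCounts, with reads on several genes split into fractions. The deposited values for CSR-1A+B and the other small RNA libraries are estimated counts per gene, not normalized and partly fractional, which were rounded to whole numbers. The deposited mRNA values for wild-type L4 are counts per gene (Trimmomatic, HISAT2, featureCounts 2.0.0), converted here to TPM over exonic length. The files hold 31106 gene IDs, of which 28127 matched a symbol in the reference annotation and 30911 a biotype. They hold 1 miRNA gene and 0 piRNA genes, so those classes were not described.

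Enrichment was tested with edgeR 4.0.16 (R 4.3.3; filterByExpr, TMM, quasi-likelihood F test, Benjamini-Hochberg adjustment) on the 4 libraries, and differences of enrichment with an interaction term on both pairs. RPM used the reads mapped to the genome as the study gives them, with thresholds of 10 RPM, 2-fold and an adjusted p of 0.05. Standard errors were derived from the fold change and the F statistic. DESeq2 1.42.0, Python 3.11.15, numpy 2.4.6, pandas 2.3.3 and scipy 1.17.1 were also used, and the code was tested on simulated data. Named genes were the leading targets and depleted genes of each list, the 5 largest differences each way per interaction at 10 RPM or more, the most abundant and the most enriched genes, and those the study names. Genes outside this rule are marked where they are named. The members and lists were chosen with earlier results of these data known. Alternatives changed the scaling, filter, tool, gene set, RPM minimum and denominator, added a replicate block, or left out each library.

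The study took its inputs from the lysates used for the IPs, but the labels do not say that equal replicate numbers share a lysate. The main fits therefore used no pairing, and the replicate block was kept as an alternative. Deviations of IP and input of the same number from their group means correlated with r of 0.008 in CSR-1A+B, 0.051 in CSR-1B, 0.046 in adults, and 0.244, 0.335 and 0.140 in the control. Counting intervals and depth cover counting error only, since reads carried no molecular identifiers. Symbols of the lists that matched no ID in the files, such as cde-1 and wago-2, were not used here.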

Additional observations from a re-analysis of the deposited data

Results flagged for a closer look

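The enrichment of CSR-1A+B at L4 differed from that of CSR-1B at L4 by a test of the difference itself for 1457 genes that were higher and 94 that were lower (edgeR, Benjamini-Hochberg adjusted). The log2 differences upward were 5.73 for daf-36, 5.72 for dhs-18, 5.08 for WBGene00194644, 4.67 for Y105C5B.15 and 4.63 for ugt-44. Downward they were -4.90 for Y4C6B.2, -2.47 for Y41E3.22, -2.05 for WBGene00013113, -2.04 for WBGene00014692 and -1.95 for ipmk-1, all on chromosome IV. Of 2537 tested genes on that chromosome 41 were lower (1.62%), against 0.679% of all genes, in a list that ran from 3 to 1796 genes with 1 library left out. The WBGene00194644 gene had 22.5 and 26.8 RPM in the CSR-1A+B IP and 0.649 and 1.61 RPM in the CSR-1B IP.

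Against adults, 2020 genes were higher at L4 and 2342 were lower by the same test. The log2 differences upward were 6.76 for clec-130, 5.10 for dct-17, 5.05 for lys-10, 4.27 for spch-1 and 4.00 for msd-1. The first 3 were also enriched in the untagged control IP and differed between the CSR-1A+B L4 IP libraries, with clec-130 at 47.5 and 9.30 RPM. Downward they were -5.02 for WBGene00219279, -4.02 for WBGene00219303, -3.72 for apa-2, -3.63 for H37A05.4 and -3.59 for linc-121.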

How the results depend on the processing

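The 3975 targets and 1959 depleted genes stayed within 1.5 times over the alternatives, from 3279 (minimum of 20 RPM) to 4346 targets (library size alone) and from 1401 (protein-coding genes only) to 2711 depleted genes (RPM over counts on genes). With 1 library left out they ran from 3951 to 4061 and from 1888 to 1979. The calls against CSR-1B were less steady. The 94 lower genes became 235 with library size alone, 302 with no filter on low counts and 44 with DESeq2's Wald test, which gave 661 higher in place of 1457. With the replicate block 166 were lower, and the block changed no other call of these counts by over 1.5 times. With 1 library left out, 242 to 1966 were higher and 3 to 1796 lower. Against adults, DESeq2's size factors gave 3536 higher and 1185 lower, library size alone 5189 and 576, and no filter 4435 and 1052. DESeq2's Wald test gave 815 lower, and protein-coding genes alone 1329 higher. With 1 library left out, 999 to 3436 were higher and 341 to 2383 lower. Against the control, library size alone gave 3341 lower, and leaving out 1 library gave 3895 to 4117 higher and 4442 to 5264 lower. With rRNA left out of the total, the share of counts (IP minus input, in percentage points) was 20.8 for protein-coding genes, -6.13 for pseudogenes, -5.29 for ncRNA, -4.87 for tRNA, -2.13 for snoRNA, -0.168 for antisense RNA and -0.0529 for genes with no annotation. The direction turned for 2 named genes, alg-4 (log2 -0.077 among protein-coding genes only) and Y41E3.22 (log2 0.29 without CSR-1A+B IP replicate 2 and -2.18 without replicate 1). The cause was not tested for any of these. The shallowest library was CSR-1B IP replicate 1, with 570862 counts.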
